A study of Mus musculus with 42 samples.

Results

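Inflammatory CC chemokines are small secreted proteins that draw white blood cells along a gradient, and they act through G protein-coupled receptors on the cells that migrate. Ccl2, Ccl7 and Ccl12 are ligands of Ccr2, the receptor by which monocytes leave bone marrow and enter inflamed tissue. Ccl3, Ccl4 and Ccl5 attract macrophages, T cells and NK cells, and Ccr1 is a receptor of Ccl3 and Ccl5. CpG oligodeoxynucleotides (ODN) are short DNAs that are sensed by the endosomal receptor Tlr9, which signals through Myd88 to NF-kappaB and to interferon regulatory factors. The genes described here are Ccl2, Ccl3, Ccl4, Ccl5, Ccl7, Ccl8, Ccl12, Ccr1 and Ccr2, a list of 9 chosen by name. Every array feature whose only gene symbol was on the list was taken, and features of the same gene were averaged. Of the 9 genes, 8 were measured, through 9 features out of 30601, and Ccl8 is not analysed here because no feature had it as its only symbol. The table as a whole gave 15277 genes.

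The study followed the spleens of female BALB/c mice on 42 arrays in 10 groups. Mice of 8 groups received an intraperitoneal injection of 400 µg of CpG ODN 1555 and 1466 in equal molar parts, and spleens were taken after 3, 9, 24 or 72 h or after 5, 7, 9 or 14 days, with 4 arrays per group. A control group of 4 arrays received 400 µg of ODN 1612 and 1471 in equal molar parts and was sampled at 3 h, and 6 arrays carried RNA of untreated mice. No control ODN arrays were analysed here for the later times. No mouse ages are given in the labels used here, and the submitters describe the replicates as independent biological ones. Each array carried spleen RNA labelled Cy5 against a common mouse reference RNA labelled Cy3. All values below are read as log2 ratios of spleen to that reference, with log base and direction inferred from the values. A difference of 1 is then a doubling, and the levels of different genes cannot be compared with each other. RNA came from whole spleen, where fewer cells of a type and less RNA per cell cannot be told apart.

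The untreated arrays held the transcripts that define spleen, with mean log2 ratios of 5.64 for the B cell gene Cd79a, 1.11 for the T cell gene Cd3e, 6.79 for H2-Aa and 6.83 for the haemoglobin gene Hbb-b1 (n = 6). High spleen genes were also used to infer the direction of the ratios, so these values are no separate check. Between 173 and 1740 features per array had no value, and 8 arrays had over 1000 missing. The database numbers in the array titles fell into 10 runs of neighbouring numbers, 4 of them with 1 array. Of the untreated arrays, 5 lay in a run of their own and 1 shared a run with 2 CpG 3 h arrays. The control ODN, 72 h, 7 day and 14 day arrays shared 1 run of 16. For control ODN, 72 h, 5, 7, 9 and 14 days against untreated, group and run cannot be told apart.

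In the mouse genome (GRCm38.p6, RefSeq positions) the ligand genes lie in 2 groups on chromosome 11 and the receptor genes on chromosome 9. Ccl2 spans chr11:82035577-82037452, Ccl7 chr11:82045712-82047525, Ccl12 chr11:82101845-82103399 and Ccl8 chr11:82115185-82116799. Farther along, Ccl5 spans chr11:83525778-83530518, Ccl3 chr11:83647843-83649378 and Ccl4 chr11:83648624-83664683, and the annotated spans of Ccl3 and Ccl4 overlap. Ccr1 spans chr9:123962126-123968692 and Ccr2 chr9:124101918-124109140. RefSeq promoter windows of 300 bases were at hand for 4 of the 8 measured genes. Those of Ccl3, Ccl12 and Ccr1 ran from 250 before to 50 after the gene start. The Ccr2 window, chr9:124101933-124102232, lay inside the gene span given above, after its start. Ccl12 and Ccl3 are shown because they were among the genes with the largest rise after CpG ODN, and Ccr1 because its window held the only NF-kappaB consensus match. Each is written 5′ to 3′ on the gene's strand, with the match in capitals.
Ccl12, chr11:82101595-82101894, plus strand: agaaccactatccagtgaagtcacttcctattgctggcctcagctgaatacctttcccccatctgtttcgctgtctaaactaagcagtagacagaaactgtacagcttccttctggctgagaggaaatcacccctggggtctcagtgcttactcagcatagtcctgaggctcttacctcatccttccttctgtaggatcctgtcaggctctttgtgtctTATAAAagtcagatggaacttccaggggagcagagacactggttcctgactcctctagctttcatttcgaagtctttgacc
Ccl3, chr11:83649329-83649628, minus strand: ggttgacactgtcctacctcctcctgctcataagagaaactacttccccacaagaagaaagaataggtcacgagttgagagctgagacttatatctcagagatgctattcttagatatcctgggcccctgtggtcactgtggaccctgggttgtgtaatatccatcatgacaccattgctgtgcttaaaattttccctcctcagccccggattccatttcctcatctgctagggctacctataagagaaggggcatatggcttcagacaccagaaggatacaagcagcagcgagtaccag
Ccr1, chr9:123968643-123968942, minus strand: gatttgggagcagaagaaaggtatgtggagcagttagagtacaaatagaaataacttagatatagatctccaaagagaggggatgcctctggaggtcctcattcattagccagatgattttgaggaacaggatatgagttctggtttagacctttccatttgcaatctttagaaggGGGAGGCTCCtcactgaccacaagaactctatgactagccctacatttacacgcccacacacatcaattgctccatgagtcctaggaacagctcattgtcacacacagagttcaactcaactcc

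The windows of Ccl3, Ccl12, Ccr1 and Ccr2 were searched on both strands for the NF-kappaB consensus, the interferon-response core GAAANNGAAA, the AP-1 motif TGANTCA and the TATA box TATAAA. Ccl12 held a TATA box from -31 to -26 relative to the start, and Ccr1 held an NF-kappaB consensus from -74 to -65. No other match was found in these 4 windows. The Ccr2 window holds no bases before the gene start given above, so its lack of matches says nothing of that region. Over 32851 RefSeq mouse promoter windows of the same length, 8.46% held the NF-kappaB consensus, 3.44% the GAAANNGAAA core, 7.81% TGANTCA and 13.6% TATAAA. These matches describe the letters in the windows only.

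At 3 h after CpG ODN, 6 of the 8 measured genes were higher than in untreated spleen, led by Ccl12, Ccl4 and Ccl3. At 9 h the same 6 ligands passed the test and Ccr2 was lower. At 24 h only Ccl12 and Ccl3 still passed it among these 8 genes, and at 72 h Ccl12, Ccl4 and Ccl3 were higher and Ccl2 was lower. At 5 days Ccl5 and Ccl2 were below untreated spleen, and at 7, 9 and 14 days none of the tested genes passed. A gene is said to rise, fall or be called where its adjusted p, from limma over all genes tested in that comparison with Benjamini-Hochberg adjustment, was below 0.05. All comparisons with untreated spleen share the same 6 untreated arrays.

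**Figure D1:**
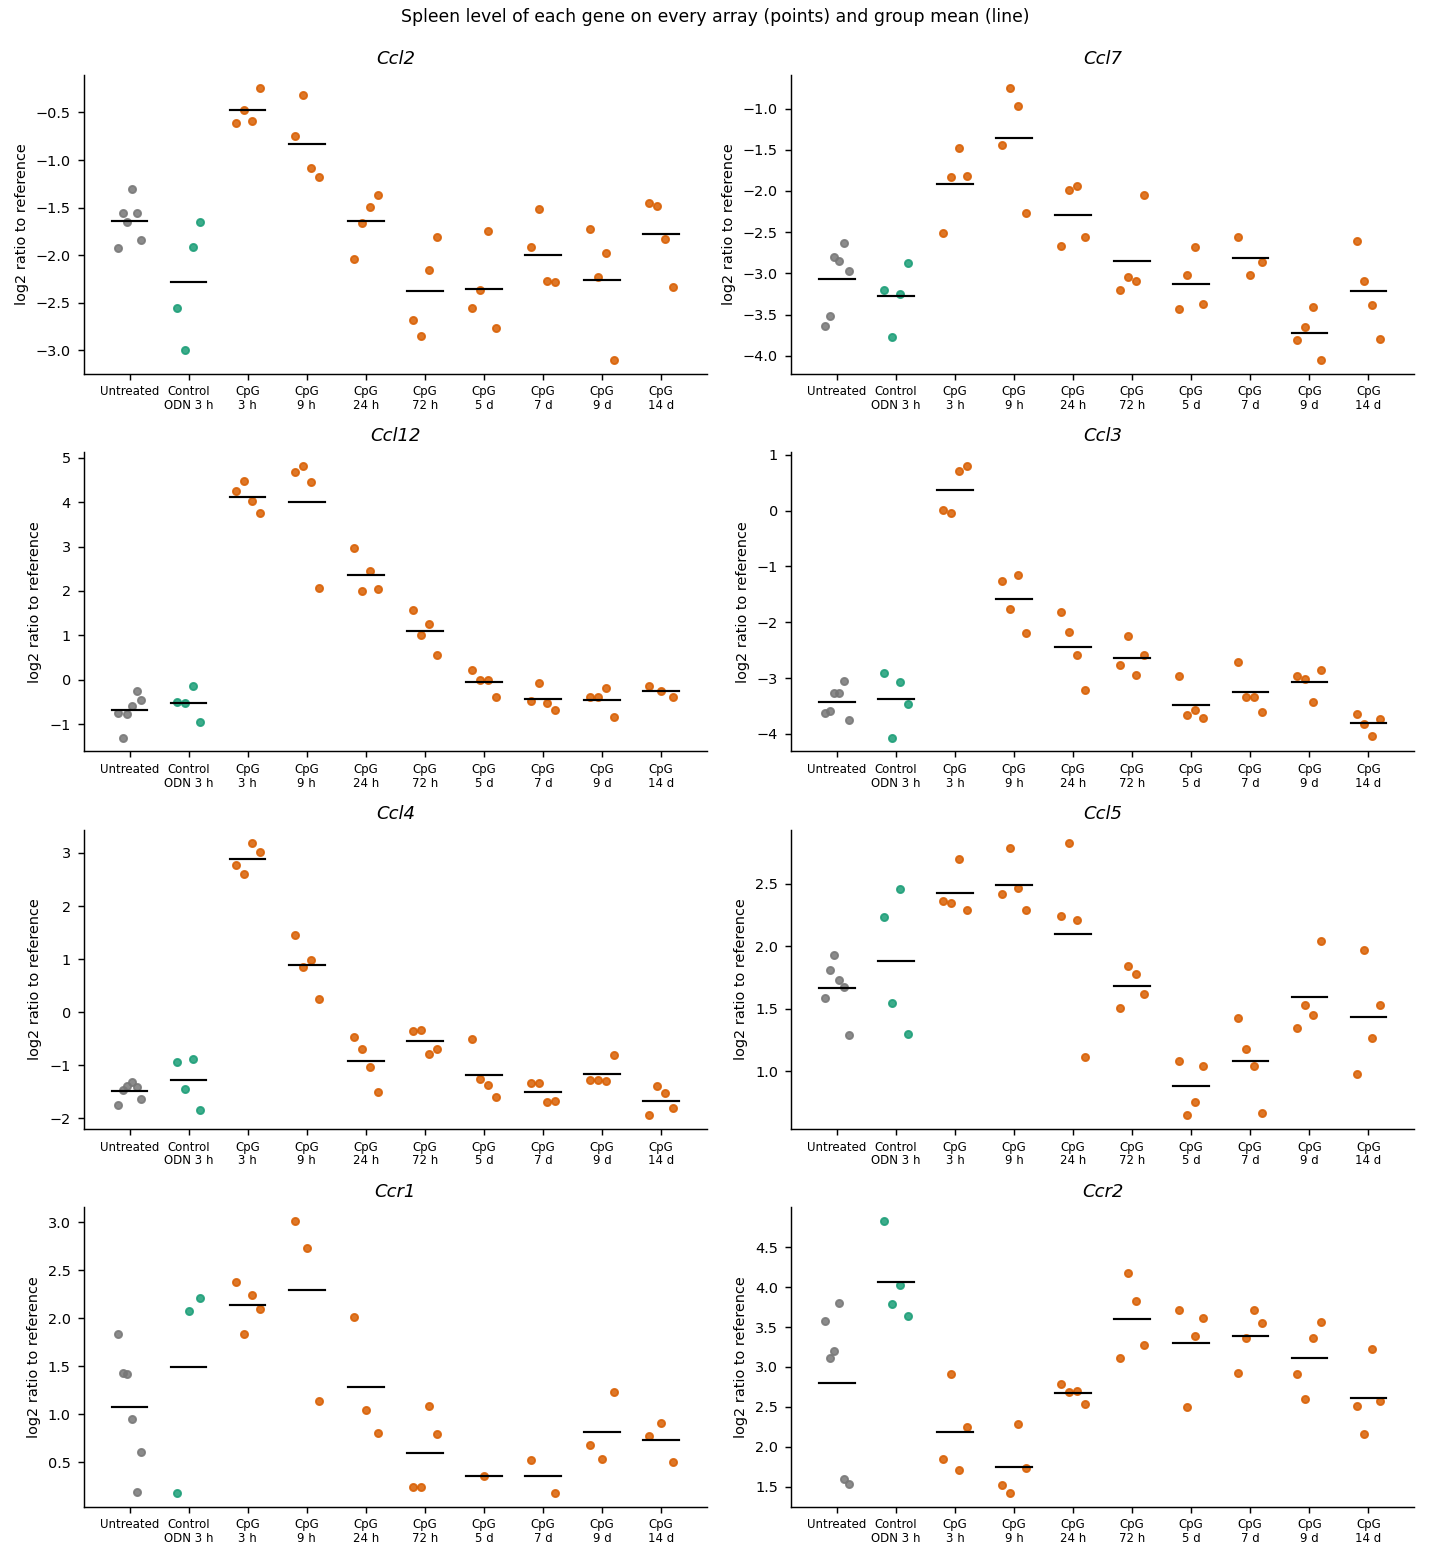
Log2 ratio to the reference of the 8 measured genes on every array (points) in the 10 groups, with the group mean as a line and a separate vertical scale per gene. Ccl12, Ccl3 and Ccl4 are highest at 3 or 9 h after CpG ODN with no overlap with untreated spleens, while Ccr2 is spread from 1.53 to 3.80 in untreated spleens.

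Ccl12, a monocyte attractant of mice that acts on Ccr2, had the largest difference of all genes tested at 3 h, ranking 1 among the genes by log2 difference, and ranked 2 at 9 h. Untreated arrays ran from -1.30 through a median of -0.67 to -0.24. The 4 arrays at 3 h read 4.26, 4.48, 4.02 and 3.75. At 9 h they read 4.67, 4.82, 4.45 and 2.08, so the array of replicate 4 stood well below the other 3 and still above every untreated array. The rise was 4.81 ± 0.31 (log2 difference ± SE) at 3 h, a 28.1-fold higher level, with an adjusted p of 3.8e-15 by limma. At 9 h it was 4.69 ± 0.31, or 25.8-fold (limma, adjusted p 2.08e-14).

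Ccl12 came down in steps. Arrays read 2.97, 1.99, 2.45 and 2.04 at 24 h and 1.58, 1.01, 1.26 and 0.56 at 72 h, all above the untreated range. The differences from untreated spleen were 3.05 ± 0.31 at 24 h (8.27-fold, limma adjusted p 3.3e-09) and 1.79 ± 0.31 at 72 h (3.45-fold, limma adjusted p 0.000145). The fall from 9 to 24 h was -1.64 ± 0.34 (limma adjusted p 0.00187) and that from 24 to 72 h was -1.26 ± 0.34 (limma adjusted p 0.0198). Arrays then read 0.21, 0.00, 0.00 and -0.39 at 5 days, -0.47, -0.07, -0.51 and -0.67 at 7 days, -0.39, -0.38, -0.18 and -0.83 at 9 days, and -0.13, -0.26 and -0.39 at 14 days, where replicate 2 had no value. The 5 day difference of 0.64 ± 0.31 was not called (limma adjusted p 0.112), and those at 7, 9 and 14 days were 0.25, 0.24 and 0.42. In the order of group means, 3 h stood first, then 9, 24 and 72 h and 5 days, while by medians 9 h stood first. Of the 9 pairs of neighbouring groups in that order, 2 had ranges that did not overlap, 24 with 72 h and 72 h with 5 days. With only the groups compared in the fit, the fall from 9 to 24 h had an adjusted p of 0.137, and without 24 h replicate 1 or 3 or 72 h replicate 2 or 4 the fall from 24 to 72 h had adjusted p values of 0.0597 to 0.0891.

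Ccl2, the best known monocyte attractant and a ligand of Ccr2, rose early and was below untreated spleen later. Untreated arrays ran from -1.92 through -1.60 to -1.30. Arrays read -0.61, -0.47, -0.58 and -0.24 at 3 h and -0.74, -0.32, -1.08 and -1.18 at 9 h, all above the untreated range. The rise was 1.16 ± 0.25 at 3 h (2.23-fold, limma adjusted p 0.000967) and 0.80 ± 0.25 at 9 h (1.75-fold, limma adjusted p 0.0372). At 24 h arrays read -2.04, -1.66, -1.5 and -1.36 and the mean equalled the untreated one within 0.002.

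From 72 h onward Ccl2 values overlapped the untreated range or lay below it. Arrays read -2.68, -2.85, -2.16 and -1.80 at 72 h and -2.56, -2.36, -1.75 and -2.77 at 5 days, so 3 of 4 arrays at each time were below every untreated array. The differences were -0.74 ± 0.25 at 72 h (1.66-fold lower, limma adjusted p 0.0433) and -0.72 ± 0.25 at 5 days (1.65-fold lower, limma adjusted p 0.0271). Tested directly in the same fit, a comparison chosen after those calls were seen, Ccl2 at 72 h was lower than at 3 h by -1.89 ± 0.28 (limma adjusted p 3.21e-06) and lower than at 9 h by -1.54 ± 0.28 (limma adjusted p 0.000196), where 8.45% and 6.8% of all genes tested were called lower. At 5 days it was lower than at 3 h by -1.88 ± 0.28 (limma adjusted p 1.72e-06) and than at 9 h by -1.52 ± 0.28 (limma adjusted p 5.45e-05), with 15.2% and 13.4% of all genes called lower. Each pair joins a time called above untreated spleen with a time called below it, so a difference was near certain by this choice.

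The remaining Ccl2 arrays read -1.91, -1.52, -2.28 and -2.28 at 7 days, -1.73, -2.23, -1.97 and -3.10 at 9 days, and -1.45, -1.48, -1.82 and -2.34 at 14 days, and no difference was called. The control ODN arrays read -2.55, -3.0, -1.92 and -1.65, a difference of -0.64 ± 0.25 that was not called (limma adjusted p 0.118), with an adjusted p of 0.0272 without control ODN replicate 4. In the order of means 3 h and 9 h came first, and only the step from 9 h to untreated had ranges that did not overlap. The calls at 9 h, 72 h and 5 days each depended on several arrays. The 9 h call was lost without untreated replicate 1, 3, 5 or 6 or 9 h replicate 1 or 2 (adjusted p 0.05 to 0.178). The 72 h call was lost without untreated replicate 2, 3, 4 or 5 or 72 h replicate 1, 2 or 3 (0.0611 to 0.185), and the 5 day call without untreated replicate 4 or 5 day replicate 1, 2 or 4 (0.0547 to 0.114). Within single runs, Ccl2 was higher on 2 CpG 3 h arrays than on 1 untreated array by 1.14, too few arrays to test. It was lower on 3 arrays at 24 h than on 4 at 9 h by -0.67, with no overlap. In the run that holds both, Ccl2 at 72 h was lower than at 14 days by -0.60 ± 0.28 and not called (limma adjusted p 0.0991). With runs as a random block, the 72 h difference from untreated spleen was -0.74 and lost its call (limma adjusted p 0.0548).

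Ccl7, another Ccr2 ligand, had its highest mean at 9 h. Untreated arrays ran from -3.64 through -2.91 to -2.64. Arrays read -2.51, -1.83, -1.48 and -1.82 at 3 h and -1.44, -0.75, -0.97 and -2.27 at 9 h, all above the untreated range. The rise was 1.16 ± 0.27 at 3 h (2.23-fold, limma adjusted p 0.00187) and 1.71 ± 0.27 at 9 h (3.28-fold, limma adjusted p 1.07e-05). Arrays then read -2.66, -1.99, -1.94 and -2.55 at 24 h, where the lowest array overlapped the untreated range and the difference of 0.78 ± 0.27 missed the threshold (limma adjusted p 0.0511). The fall from 9 to 24 h was -0.93 ± 0.29 (limma adjusted p 0.0374) and was lost when 9 h replicate 1, 2 or 3 or 24 h replicate 1, 3 or 4 was left out (adjusted p 0.0586 to 0.13). The 24 h difference passed without untreated replicate 3 or 5 or 24 h replicate 1 or 4 (adjusted p 0.0364 to 0.0496).

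Later Ccl7 arrays read -3.20, -3.04, -3.10 and -2.05 at 72 h, -3.44, -3.02, -2.69 and -3.37 at 5 days, -2.55, -3.02 and -2.86 at 7 days with replicate 1 missing, -3.80, -3.66, -3.40 and -4.05 at 9 days, and -2.61, -3.09, -3.39 and -3.79 at 14 days. None of these times was called, and 9 days had the lowest mean of the 10 groups, -3.73 ± 0.27 (SD, n = 4). The 9 day difference was -0.66 ± 0.27 (limma adjusted p 0.0958). No neighbouring groups in the order of means had ranges that did not overlap.

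Ccl3 and Ccl4, the macrophage inflammatory proteins secreted by activated macrophages, NK cells and T cells, rose sharply at 3 h and lost much of the rise by 9 h. For Ccl3, untreated arrays ran from -3.75 through -3.43 to -3.05. Arrays read 0.02, -0.04, 0.70 and 0.80 at 3 h and -1.26, -1.76, -1.15 and -2.20 at 9 h, with no overlap between 3 h, 9 h and untreated spleen. The differences were 3.80 ± 0.24 at 3 h (13.9-fold, limma adjusted p 1.41e-15) and 1.83 ± 0.24 at 9 h (3.57-fold, limma adjusted p 3.34e-07). Arrays read -1.82, -2.18, -2.59 and -3.22 at 24 h and -2.76, -2.24, -2.95 and -2.58 at 72 h, with differences of 0.98 ± 0.24 (1.97-fold, limma adjusted p 0.00559) and 0.79 ± 0.24 (1.73-fold, limma adjusted p 0.0219). At 24 h replicate 4 lay inside the untreated range, and at 72 h all 4 arrays lay above it. The 72 h call was lost without 72 h replicate 2 (adjusted p 0.107).

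Ccl3 fell by 1.96 ± 0.26 from 3 to 9 h (limma adjusted p 1.11e-05) and by 0.86 ± 0.26 from 9 to 24 h (limma adjusted p 0.0322), a step lost without 9 h replicate 1 or 3 or 24 h replicate 3 or 4 (adjusted p 0.102 to 0.111) or with only those groups in the fit (0.187). Arrays read -2.97, -3.66, -3.57 and -3.71 at 5 days, -2.71, -3.34, -3.34 and -3.60 at 7 days, -2.97, -3.02, -3.44 and -2.86 at 9 days, and -3.64, -3.83, -4.04 and -3.74 at 14 days. These 4 times were not called and overlapped untreated spleen. In the order of means only the step from 3 to 9 h separated neighbouring groups.

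For Ccl4, untreated arrays ran from -1.74 through -1.43 to -1.32. Arrays read 2.77, 2.60, 3.18 and 3.01 at 3 h and 1.46, 0.85, 0.99 and 0.24 at 9 h. The difference was 4.38 ± 0.21 at 3 h (20.8-fold, limma adjusted p 4.7e-19) and 2.38 ± 0.21 at 9 h (5.19-fold, limma adjusted p 3.04e-11). By 24 h arrays read -0.47, -0.69, -1.04 and -1.5, and the difference of 0.57 ± 0.21 was not called (limma adjusted p 0.0753). It passed without 24 h replicate 4 (adjusted p 0.015). At 72 h arrays read -0.36, -0.33, -0.79 and -0.68, all above untreated spleen, with a difference of 0.95 ± 0.21 (1.93-fold, limma adjusted p 0.00228). Ccl4 fell by 2.00 ± 0.23 from 3 to 9 h (limma adjusted p 6.96e-07) and by 1.81 ± 0.23 from 9 to 24 h (limma adjusted p 1.62e-06), and both steps separated the ranges.

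Later Ccl4 arrays read -0.51, -1.26, -1.37 and -1.60 at 5 days, -1.34, -1.34, -1.70 and -1.67 at 7 days, -1.27, -1.28, -1.30 and -0.81 at 9 days, and -1.94, -1.38, -1.53 and -1.81 at 14 days, and no difference was called. Ccl4 was the only one of the 8 genes with more than 1 feature. Its 2 features correlated at r = 0.919 over 42 arrays and differed by -1.13 to 2.37 on single arrays. At 3 h the first feature gave a difference of 5.03 ± 0.21 and the second 3.73 ± 0.25, and at 9 h they gave 2.89 and 1.86. At 24 h the first was called (0.92, limma adjusted p 0.00403) and the second was not (0.22, limma adjusted p 0.648). At 9 days the second was called (0.79, limma adjusted p 0.0343) and the first was not (-0.14, limma adjusted p 0.727).

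Ccl5, a ligand of Ccr1 that T cells and NK cells secrete, rose modestly at 3 and 9 h and was low at 5 days. Untreated arrays ran from 1.29 through 1.70 to 1.93. Arrays read 2.36, 2.35, 2.69 and 2.29 at 3 h and 2.42, 2.79, 2.47 and 2.29 at 9 h, all above the untreated range. The rise was 0.76 ± 0.23 at 3 h (1.69-fold, limma adjusted p 0.0201) and 0.82 ± 0.23 at 9 h (1.77-fold, limma adjusted p 0.0145). Without untreated replicate 6 or 3 h replicate 3 the 3 h call was lost (adjusted p 0.0556 and 0.0934), as was the 9 h call without 9 h replicate 2 (0.0701). Arrays read 2.24, 2.82, 2.21 and 1.11 at 24 h, where replicate 4 stood apart. The 24 h difference of 0.43 ± 0.23 was not called (limma adjusted p 0.231) and was 0.76 without that array (0.0125).

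At 72 h Ccl5 arrays read 1.51, 1.84, 1.77 and 1.62, within the untreated range. At 5 days they read 1.08, 0.65, 0.76 and 1.04, below every untreated array, a difference of -0.79 ± 0.23 (1.72-fold lower, limma adjusted p 0.00731). Tested directly, again chosen after seeing the calls, Ccl5 at 5 days was lower than at 3 h by -1.54 ± 0.25 (limma adjusted p 7.19e-06) and than at 9 h by -1.61 ± 0.25 (limma adjusted p 5.09e-06). For Ccl5 too, joining times called above and below untreated spleen made a difference near certain. Arrays read 1.43, 1.18, 1.04 and 0.67 at 7 days, 1.34, 1.53, 1.45 and 2.04 at 9 days, and 0.98, 1.97, 1.27 and 1.53 at 14 days. The 7 day difference of -0.59 ± 0.23 was not called (limma adjusted p 0.0701) and passed without untreated replicate 6 or 7 day replicate 1 (0.0478 and 0.0491). None of the 9 neighbouring pairs in the order of means separated their ranges.

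Ccr1, a receptor of Ccl3 and Ccl5 on monocytes and neutrophils, had a value on 32 of 42 arrays and was not called at any time it was tested. It was not tested at 5 or 7 days, where only 1 and 2 arrays gave a value, 0.35 at 5 days and 0.52 and 0.18 at 7 days. Untreated arrays ran from 0.19 through 1.18 to 1.84. Arrays read 2.38, 1.84, 2.24 and 2.10 at 3 h and 3.01, 2.73 and 1.14 at 9 h. The lowest 3 h array and the highest untreated one both read 1.84. The differences of 1.07 ± 0.36 at 3 h and 1.22 ± 0.40 at 9 h missed the threshold by little (limma adjusted p 0.0533 and 0.0526). The 3 h difference passed without untreated replicate 1 (0.028), and the 9 h difference without untreated replicate 1 (0.031) or 9 h replicate 4 (0.00396). The other arrays read 2.01, 1.04 and 0.80 at 24 h, 0.24, 0.24, 1.09 and 0.80 at 72 h, 0.68, 0.54 and 1.23 at 9 days, and 0.78, 0.91 and 0.50 at 14 days. The control ODN arrays read 0.18, 2.08 and 2.21.

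Ccr2, the receptor of Ccl2, Ccl7 and Ccl12 and a defining gene of inflammatory monocytes, was lower at 9 h, when its ligands were higher. Its untreated arrays were widely spread and read 3.58, 3.11, 3.20, 3.80, 1.60 and 1.53. Replicates 5 and 6 stood apart from the other 4, and replicate 5 had the most missing features of all arrays, 1740. Arrays read 1.85, 2.92, 1.71 and 2.25 at 3 h and 1.53, 1.42, 2.29 and 1.74 at 9 h. The difference was -0.62 ± 0.34 at 3 h (limma adjusted p 0.296) and -1.06 ± 0.34 at 9 h (2.09-fold lower, limma adjusted p 0.0441), and both groups overlapped the untreated range. The 9 h call was lost without untreated replicate 1, 2, 3 or 4 or 9 h replicate 1, 2 or 4 (adjusted p 0.0792 to 0.133). It was also lost with array weights and with runs as a random block (limma adjusted p 0.0681 and 0.055). With a block for replicate number, which sets untreated replicates 5 and 6 aside, Ccr2 was lower by -1.24 at 3 h and -1.68 at 9 h (limma adjusted p 0.00348 and 0.000125). The size of the Ccr2 difference thus depended on these 2 untreated arrays.

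Ccr2 arrays read 2.79, 2.68, 2.70 and 2.54 at 24 h and 3.11, 4.17, 3.83 and 3.27 at 72 h. The 72 h difference of 0.79 ± 0.34 was not called (limma adjusted p 0.112) and passed without untreated replicate 4 (0.0498). Later arrays read 3.71, 2.50, 3.39 and 3.61 at 5 days, 2.92, 3.36, 3.72 and 3.54 at 7 days, 2.91, 2.60, 3.36 and 3.56 at 9 days, and 2.51, 2.16, 3.22 and 2.57 at 14 days, and none of these differences was called. The control ODN arrays, 4.83, 3.78, 4.03 and 3.64, gave the highest mean of the 10 groups and the 9 h arrays the lowest. No neighbouring groups in the order of means separated their ranges.

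The counts of genes called can be read against those of the whole table. At 3 h 6 of 8 genes were higher where 7.7% of all genes tested were called higher. At 9 h 6 of 8 were higher, against 5.07% of all genes, and 1 was lower, against 3.45%. At 24 h 2 of 8 were higher against 8.03% of all genes. At 72 h 3 of 8 were higher, against 8.94%, and 1 was lower, against 6.01%. At 5 days 2 of the 7 genes tested were lower where 13.4% of all genes were called lower.

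At 7, 9 and 14 days 0 of 7, 8 and 8 genes were called by limma. In either direction 15.6%, 13.5% and 4.54% of all genes were called at those times, and 1, 2 and 0 of these genes had an unadjusted p below 0.05. The median log2 difference of the genes tested was 1.16 at 3 h, 1.47 at 9 h, 0.50 at 24 h, 0.51 at 72 h and -0.05 at 5 days. Over all genes tested it stayed between -0.02 and 0.02 at those times. The lowest and highest single differences were -0.62 and 4.81 at 3 h, and -0.39 and 0.42 at 14 days.

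The control ODN group shows how the same genes stood 3 h after injection of the other oligonucleotides. Against untreated spleen, 1 of 8 genes was called, Ccr2, which was higher by 1.27 ± 0.34 (2.41-fold, limma adjusted p 0.036), where 2.45% of all genes were called higher. The call depended on single arrays, the 2 low untreated ones among them. Without untreated replicate 5 the difference was 1.03 (adjusted p 0.0825), without replicate 6 it was 1.01 (0.0881), and it was also lost without untreated replicate 2 or control ODN replicate 1, 2 or 3 (0.053 to 0.186). The other 7 genes differed by -0.64 to 0.42. The control ODN arrays of Ccl12 read -0.50, -0.52, -0.14 and -0.94, those of Ccl3 -2.92, -4.07, -3.07 and -3.46, those of Ccl4 -0.93, -1.44, -0.88 and -1.85. For Ccl7 they read -3.20, -3.78, -3.25 and -2.88, and for Ccl5 2.24, 1.55, 2.46 and 1.29. All 5 genes overlapped the untreated range.

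CpG ODN was tested directly against control ODN at 3 h, and 5 of 8 genes were higher with CpG, where 9.23% of all genes were called higher. Ccl12 was higher by 4.65 ± 0.34 (25.1-fold, limma adjusted p 2.21e-13), Ccl4 by 4.16 ± 0.23 (17.9-fold, limma adjusted p 1.09e-16) and Ccl3 by 3.75 ± 0.26 (13.5-fold, limma adjusted p 4.58e-14). Ccl2 was higher by 1.80 ± 0.28 (3.49-fold, limma adjusted p 6.08e-06) and Ccl7 by 1.37 ± 0.29 (2.58-fold, limma adjusted p 0.000775). Ccr2 was lower with CpG by -1.89 ± 0.37 (3.7-fold, limma adjusted p 0.000308), and 11.5% of all genes were called lower. The ranges of the 2 groups did not overlap for any of these 6 genes. Ccl5 differed by 0.54 ± 0.25 (limma adjusted p 0.12) and Ccr1 by 0.65 ± 0.43 (limma adjusted p 0.307). Ccl5 was called higher under quantile normalization (0.639, limma adjusted p 0.0346), scale normalization (0.855, 0.0112) and array weights (0.586, 0.0473). In the same comparison 5 of 8 B cell markers, 4 of 14 resident macrophage markers, 3 of 9 T cell markers and 3 of 9 dendritic cell markers were lower with CpG. Of 13 inflammatory monocyte markers 5 were higher and 2 lower, and of 14 neutrophil markers 2 were higher and 2 lower. Their part in the Ccr2 difference was not tested. The CpG 3 h and control ODN arrays lie in different runs, so group and run cannot be told apart in this comparison.

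**Figure D2:**
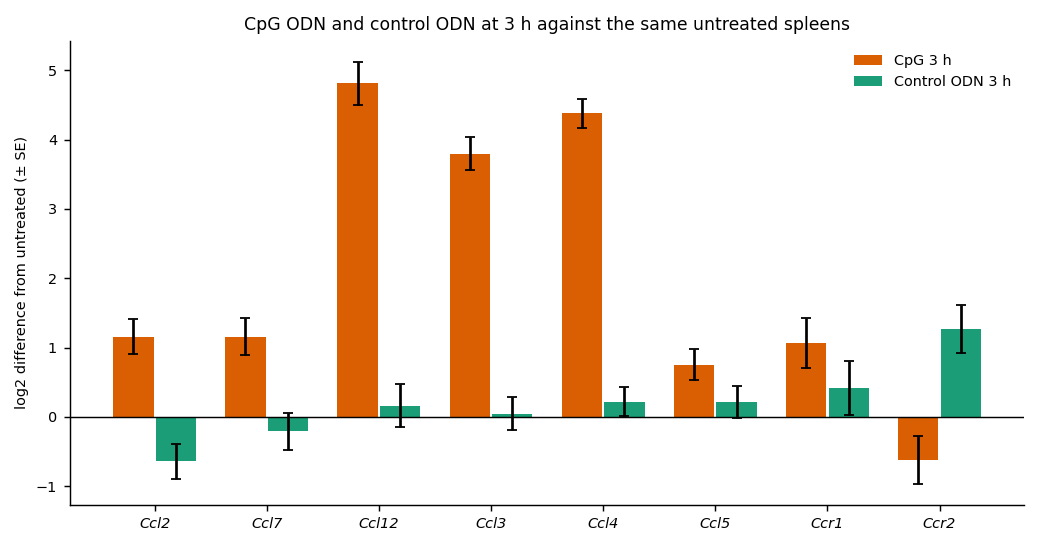
Log2 difference from the same 6 untreated arrays (± SE of the fit) at 3 h after CpG ODN and after control ODN for the 8 measured genes. The CpG bars of Ccl12, Ccl3 and Ccl4 reach 3.80 to 4.81, the control ODN bars of these genes stay between 0.05 and 0.22, and Ccr2 points down with CpG and up with control ODN.

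Between successive times, with the features of a gene averaged, every called change in these genes was a fall and lay between 3 and 72 h. From 3 to 9 h 2 of 8 genes fell, Ccl3 and Ccl4, where 1.15% of all genes fell. From 9 to 24 h 4 of 8 fell, Ccl3, Ccl4, Ccl7 and Ccl12, against 3.31% of all genes. From 24 to 72 h 1 of 8 fell, Ccl12, against 1.9%. Of the later steps, 72 h to 5 days had 0 of 7 called by limma, 5 to 7 days 0 of 7, 7 to 9 days 0 of 7 and 9 to 14 days 0 of 8, with 4, 0, 2 and 2 at an unadjusted p below 0.05. In those steps 3.42%, 3.22%, 4.93% and 9.68% of all genes were called in either direction. The closest was Ccl12 from 72 h to 5 days, at -1.14 with a limma adjusted p of 0.0505, and without 72 h replicate 4 its adjusted p was 0.034. With features fitted singly, those of Ccl4 disagreed in later steps. From 72 h to 5 days the first changed by -0.98 (limma adjusted p 0.0183) and the second by -0.31 (0.627). From 9 to 14 days the second changed by -1.08 (limma adjusted p 0.0123) and the first by 0.08 (0.874).

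Within the run of 16 arrays, the groups could be compared without a change of run. Against 14 days, 72 h had 4 of 8 genes higher, and 15.5% of all genes were called higher. Ccl12 was higher by 1.36 ± 0.37 (limma adjusted p 0.00519), Ccl3 by 1.18 ± 0.26 (limma adjusted p 0.00102) and Ccl4 by 1.13 ± 0.23 (limma adjusted p 0.000416), with no overlap of ranges. Ccr2 was higher by 0.98 ± 0.37 (limma adjusted p 0.0444) with overlapping ranges, a call lost without 72 h replicate 2 or 3 or 14 day replicate 1, 2 or 4 (adjusted p 0.0792 to 0.154). Under scale normalization the Ccl3 difference was 0.60 and lost its call (limma adjusted p 0.0805). Ccl2 was then called lower at 72 h (-0.95, limma adjusted p 0.00938), as with array weights (-0.89, 0.0018). Without arrays of over 1000 missing, the Ccl12 difference of 1.25 lost its call (limma adjusted p 0.071). Control ODN had 1 of 8 higher, Ccr2 by 1.46 ± 0.37 (limma adjusted p 0.0204), where 3.12% of all genes were called higher. That call was lost without control ODN replicate 1 or 3 or 14 day replicate 2 (0.0555 to 0.0922). The ranges of that pair did not overlap. At 7 days against 14 days 0 of 7 genes were called by limma, 2 had an unadjusted p below 0.05, and 21.5% of all genes were called in either direction.

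The runs also bear on the early comparisons. The fits described here were added after the data were seen, for genes with a missing value on arrays of other groups. With runs as a fixed block, on the 18 untreated and CpG 3, 9 and 24 h arrays, the rises of Ccl12, Ccl3 and Ccl4 remained called at 3 and 9 h. The 3 h values were 5.19, 4.35 and 4.56 (limma adjusted p 0.000304, 8.15e-06 and 1.9e-06). Ccl7 was higher by 1.87 at 3 h and 2.68 at 9 h and missed the threshold (adjusted p 0.0614 and 0.0501), and Ccl2 was higher by 1.14 at 3 h (0.0777) and by 0.85 at 9 h (0.585). The other calls lost kept differences close to or larger than those without the block. Ccl5 was higher by 0.68 at 3 h and 0.81 at 9 h (adjusted p 0.629 and 0.816), and Ccr2 was lower at 9 h by -1.77 (0.651). At 24 h Ccl3 was higher by 1.70 (0.184) and Ccl12 by 2.98 (0.176). The fall of Ccl7 from 9 to 24 h, at -0.80, also missed the threshold (0.138). On the same arrays without the block, calls also changed. Ccr2 at 9 h (-1.06, limma adjusted p 0.0963) lost its call. From 9 to 24 h the falls of Ccl7 (-0.93, 0.0595) and Ccl3 (-0.86, 0.0615) lost theirs, and that of Ccl2 gained one (-0.81, 0.0144). The fit with the block ties untreated spleen to the others through 1 untreated array. In the run that held that array, the 2 CpG 3 h arrays were higher in the 6 ligands by 0.68 (Ccl5) to 5.19 (Ccl12), and Ccr2 was lower by -1.13.

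**Figure D3:**
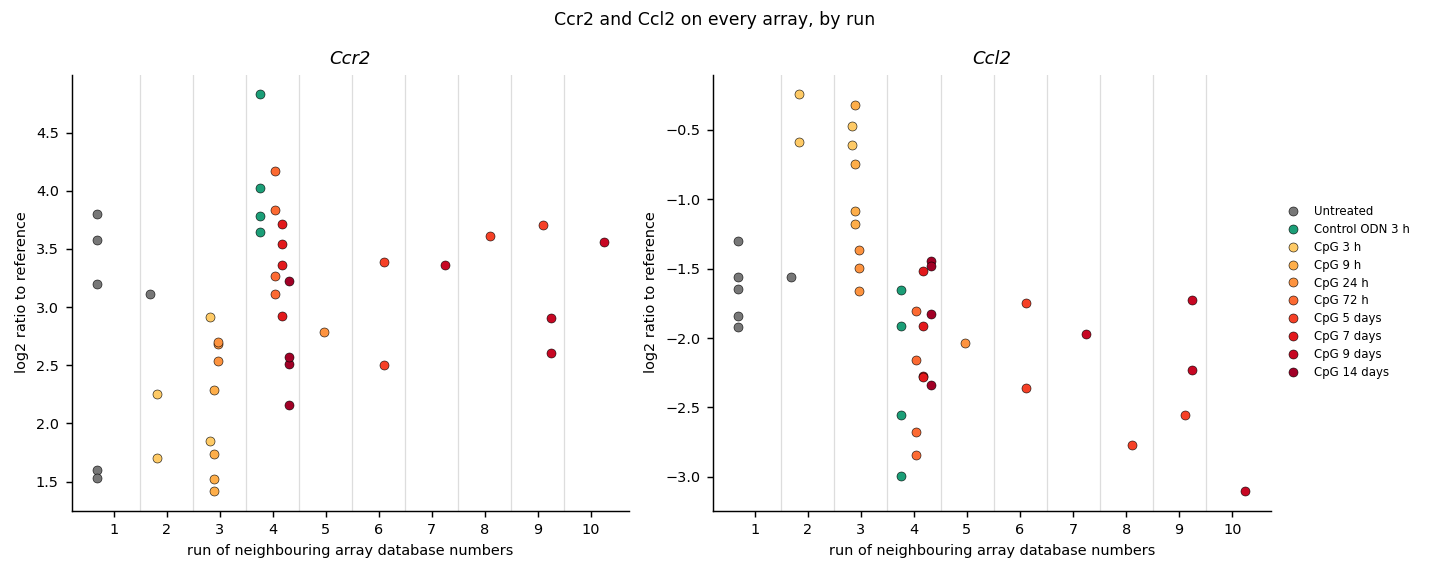
Log2 ratio of Ccr2 and Ccl2 on every array, by run of neighbouring array database numbers and coloured by group. The 6 untreated arrays lie in runs 1 and 2, and the 2 low untreated Ccr2 values (1.53 and 1.60) lie in run 1 beside 3 that exceed 3.

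Markers of the cells that make or answer these chemokines moved in some of the same groups, and their part in the results was not tested. Of 17 inflammatory monocyte markers listed, 13 were tested. At 3 h 7 rose and 0 fell (median difference 1.07), at 9 h 9 rose and 0 fell (1.40), and with control ODN 5 rose and 0 fell (0.61). They were also higher at times when fewer or none of the chemokine genes were. At 24 and at 72 h 6 rose and 1 fell, at 5 days, when Ccl2 was lower, 7 rose and 2 fell, at 7 days 3 rose and 1 fell, at 9 days 7 rose and 1 fell, and at 14 days 4 rose and 0 fell. Their mean level per array ran from 1.02 to 1.5 in untreated spleen, 2.16 to 2.43 at 3 h, 2.31 to 2.59 at 9 h, 1.78 to 1.91 at 5 days, 1.88 to 2.23 at 9 days and 1.54 to 2.12 with control ODN. Leading genes at 3 h were Ms4a6d, at 3.92 ± 0.22, and the endotoxin co-receptor Cd14, at 3.38 ± 0.25 (limma adjusted p 4.9e-17 and 1.73e-13). Of 14 neutrophil markers tested, 5 rose at 3 h, 4 at 9 h and 12 at both 9 and 14 days, when none of the 8 chemokine and receptor genes was called. The neutrophil mean ran from 1.41 to 2.31 in untreated spleen and from 4.06 to 4.57 at 9 days.

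Of 11 NK and cytotoxic cell markers tested, 2 rose at 3 h, 2 at 9 h, 3 at 24 h and 4 at 72 h, and at 5 days, when Ccl5 was low, 1 rose and 3 fell. Of 9 T cell markers, 6 fell and 1 rose at 5 days, with a mean of 1.13 to 1.39 against 1.66 to 2.28 in untreated spleen. Of 8 B cell markers 4 fell at 5 days, and of 14 red pulp and other resident macrophage markers 4 rose at 72 h and 2 rose and 2 fell at 5 days. Of 9 dendritic cell markers tested at 3 h 1 rose and 3 fell, and of 4 eosinophil, basophil and mast cell markers 4 rose at 9 days. None of 7 pancreas acinar cell markers was called at any time against untreated spleen, although their mean spread from 0.50 to 5.5 over the untreated arrays. Acinar tissue lies next to the spleen.

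The wider pathway was followed in 2 lists. Their counts, and those of the marker lists, stand beside these shares of all genes tested. Genes called higher made up 7.7% at 3 h, 5.07% at 9 h, 8.03% at 24 h, 8.94% at 72 h, 17.5% at 5 days, 8.68% at 7 days, 8.4% at 9 days and 2.77% at 14 days. Genes called lower made up 3.93%, 3.45%, 2.87%, 6.01%, 13.4%, 6.89%, 5.12% and 1.77% at those times, and with control ODN 2.45% were higher and 1.07% lower. Of 44 other chemokines and receptors tested, 9 rose and 4 fell at 3 h, 8 rose and 4 fell at 9 h, 5 rose and 2 fell at 24 h, and 6 rose and 3 fell at 72 h, with medians of 0.04, 0.05, 0.00 and -0.01. Cxcl10, which attracts Cxcr3-bearing T cells, rose by 4.46 ± 0.30 at 3 h, 2.92 ± 0.30 at 9 h, 1.72 ± 0.30 at 24 h and 1.68 ± 0.30 at 72 h. Cxcl9, a second Cxcr3 ligand, rose by 3.14, 2.75, 1.83, 2.16 and 1.44 at 3, 9, 24 and 72 h and 5 days. The neutrophil attractants Cxcl1 and Cxcl2 rose by 2.60 and 2.00 at 3 h. Ccl24, an eosinophil attractant, fell by 1.89 ± 0.17 at 9 h, and the tethered chemokine Cx3cl1 rose by 1.44 at 9 h and 1.5 at 24 h. Xcl1, which attracts cross-presenting dendritic cells, rose by 1.52 at 24 h, 1.95 at 72 h, 1.38 at 5 days and 1.00 at 7 days. The largest of these limma adjusted p values was 0.0483, for Xcl1 at 7 days.

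At 5 days the counts of other chemokines and receptors were near the shares over all genes. Of 47 upstream genes 3 rose, below the 17.5% of all genes called higher, and 8 fell, above the 13.4% called lower. At 7 days the falls in the 2 lists, 6 of 44 and 8 of 48, stood above the 6.89% of all genes called lower. At 5 days 8 of 43 other chemokines and receptors rose and 5 fell, at 7 days 3 of 44 rose and 6 fell, at 9 days 3 of 43 rose and 4 fell, and at 14 days 1 of 43 rose and 1 fell. Ccr7, the lymph node homing receptor, fell by 1.37 ± 0.28 at 5 days, 1.32 ± 0.28 at 7 days and 0.96 ± 0.28 at 9 days. The atypical receptor Ackr1 rose by 1.38 at 5 days and 1.29 at 9 days. The platelet chemokine Ppbp rose by 1.25 at 72 h, 1.27 at 9 days and 1.32 at 14 days, and Pf4, also stored in platelets, rose by 1.34 at 9 days. At 7 days Ccl21c and Cxcl12, constitutive chemokines of lymphoid stroma, fell by 0.85 and 0.79, and at 14 days Ccl24 fell by 0.62. With control ODN 1 of 44 rose, Cxcr2 by 1.09 ± 0.18, and 2 fell, Cxcr4 and Ccrl2.

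Of 48 upstream inducers and signalling genes tested, 18 rose and 1 fell at 3 h, and 10 rose and 0 fell at 9 h, with medians of 0.30 and 0.21. At 24 h 7 of 47 rose and 2 fell, at 72 h 5 of 47 rose and 4 fell, at 5 days 3 of 47 rose and 8 fell, at 7 days 1 of 48 rose and 8 fell, at 9 days 3 of 48 rose and 3 fell, and at 14 days 1 of 47 rose, the receptor Tnfrsf1a by 0.79. Il6 and Tnf, inflammatory cytokines, rose by 3.30 ± 0.29 and 2.25 ± 0.22 at 3 h. Stat2, a transducer of type I interferon signals, rose by 2.03 ± 0.15 at 3 h, 1.78 at 9 h, 1.38 at 24 h and 1.14 at 72 h. The anti-inflammatory cytokine Il10 rose by 1.64, 1.83 and 1.27 at 3, 9 and 24 h, and Irf1 rose by 1.22 at 9 h. Fgr, a kinase of myeloid cells, rose by 1.28 at 24 h and 1.03 at 72 h, and Il6 still stood 1.08 higher at 24 h.

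Nfkbia, the inhibitor of NF-kappaB, fell by 0.93 at 72 h, 1.02 at 5 days and 1.2 at 7 days. Jun, an AP-1 subunit, fell by 1.00 at 72 h, 0.92 at 5 days and 0.68 at 9 days. The interleukin 1 receptor Il1r1 fell by 0.80 and 0.85 at 5 and 7 days, and Il1b fell by 1.38 and 1.07 at 7 and 9 days. Arrb1, a beta-arrestin that uncouples chemokine receptors, rose by 0.99, 0.79 and 0.85 at 5, 7 and 9 days, and Tlr9 itself rose by 0.70 ± 0.20 at 9 days (limma adjusted p 0.0146). With control ODN 3 of 48 rose, Nfkb2, Myd88 and Rac2, by 1.11, 1.01 and 0.60. Against control ODN at 3 h, CpG gave 11 of 48 upstream genes higher and 4 lower and 10 of 44 other chemokines and receptors higher and 11 lower. The largest were Cxcl10 at 4.08 ± 0.32 and Il6 at 3.18 ± 0.31 (limma adjusted p 1.65e-12 and 4.84e-10).

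Among the 8 genes, profiles over the arrays were most alike for Ccl3 and Ccl4 (Pearson r = 0.97 over 42 arrays, 0.98 over the 10 group means). Ccl12 followed Ccl4 at 0.86 and Ccl3 at 0.85 over 41 arrays. Ccl2 was most like Ccl7 (0.77 over 41 arrays), and Ccr2 correlated negatively with every other gene measured, from -0.25 with Ccr1 to -0.65 with Ccl2. All of these are descriptions over arrays that share the 10 groups and 1 reference RNA. Of 12583 other genes with a value on every array, the 3 closest to Ccl12 were Phf11a, Lipg and the interferon-induced Ifit2, at 0.957, 0.956 and 0.956. Those closest to Ccl4 were Nfkbiz, Ifi205 and Mmp13, at 0.939, 0.935 and 0.934, and those closest to Ccl3 were Slc52a3, Ifi205 and Casp4, at 0.924, 0.914 and 0.910.

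For the genes of smaller change the likeness was lower. Ccl7 was closest to Saa3, Il10 and Uchl3 (0.873, 0.836 and 0.820 over 41 arrays), Ccl5 to Epsti1, Plekha4 and Mvp (0.840, 0.837 and 0.836), and Ccl2 to Timp1, Mt4 and Plekha1 (0.809, 0.794 and 0.784). Ccr1 was closest to Ebi3, Sytl1 and Il1rap (0.828, 0.750 and 0.741 over 32 arrays) and Ccr2 to Plekhg5, Tbxas1 and Lrrc28 (0.718, 0.717 and 0.712). Over group means Ifit2 stood first for Ccl12, at 0.990, and Ebi3 first for Ccr1, at 0.981.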

How the data were processed

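Spleen RNA of 42 samples was measured on 2-colour arrays. The deposited values, read here as log2 ratios, compare spleen RNA labelled Cy5 with reference RNA labelled Cy3, per the labels. Their log base and direction are not stated and were inferred from the values, in which spleen genes are high in untreated spleen, and array medians lay between -0.014 and 0.019. Background correction, spot filters and normalization: not given in the sources used here. Depth has no meaning for arrays, and precision depends on how many there are. Of 30601 features, 23485 had 1 gene symbol in the platform table. Features of a symbol were averaged, and 1 coefficient per group was fitted over all arrays with limma 3.58.1 in R 4.3.3 (two-sided). A gene was tested with at least 3 values per group, or 1 fewer than the group's arrays where one was left out. The steps were tested on simulated data. Runs were arrays whose database numbers lay at most 12 apart. The alternatives (normalization, filters, blocks, array weights, each array left out) are in the closing section. The genes and lists were chosen with earlier results of these data known. All measured chemokine and receptor genes of the list are named; from the pathway lists, up to 4 called genes of largest difference in each comparison, and for likeness the 3 of highest r. Promoters are RefSeq's, GRCm38.p6.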

Additional observations from a re-analysis of the deposited data

Results flagged for a closer look

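In 3 of 71 sets of 4 to 6 arrays, 1 array stood apart from the rest of its group by Dixon's criterion, where chance alone marks about 1 in 20. Ccl12 read 2.08 on CpG 9 h replicate 4, against 4.45 to 4.82 on the other 3 arrays. Ccl4 read -0.81 on CpG 9 days replicate 4, against -1.30 to -1.27. Ccl7 read -2.05 on CpG 72 h replicate 4, against -3.20 to -3.04.

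Effects of CpG ODN differed between successive times by a direct test for Ccl3, Ccl4, Ccl7 and Ccl12. Ccl3 changed by -1.96 and Ccl4 by -2.0 between 3 and 9 h. Between 9 and 24 h Ccl3 changed by -0.86, Ccl4 by -1.81, Ccl7 by -0.93 and Ccl12 by -1.64, and between 24 and 72 h Ccl12 changed by -1.26. Ccl2 differed by -1.89 between 3 and 72 h, -1.54 between 9 and 72 h, -1.88 between 3 h and 5 days and -1.52 between 9 h and 5 days. Ccl5 differed by -1.54 between 3 h and 5 days and -1.61 between 9 h and 5 days. The Ccl2 and Ccl5 pairs were chosen after their calls were seen. Each joins a time called above untreated spleen with a time called below it. A difference was near certain by that choice, so these tests add no support. The 5 day and 72 h arrays lie in other runs than the 3 and 9 h arrays.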

How the results depend on the processing

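Over 154 differences of single genes and 3530 alternative values, 129 lost the call, 76 gained it, and none reversed a called direction. In 91 the sign changed where neither fit made a call. Only called differences can lose a call and only uncalled ones can gain it, so neither count should be read as a share of 3530. The cause of these changes was not tested. Numbers of genes called moved as follows. Control ODN against untreated (1 gene) gave 0 under quantile or scale normalization, with only the groups compared, with runs as a random block, without arrays of over 1000 missing and at adjusted p below 0.01, and 2 with array weights. With runs as a fixed block 3 and 9 h gave 2 each and 24 h gave 0. On the early arrays alone, a fit added after the data were seen, they gave 3, 3 and 0. At 9 h a random block of runs gave 3 (5 genes fitted), and leaving out arrays of over 1000 missing or the 0.01 threshold gave 4. At 24 h scale normalization gave 4, and genes on all arrays or the random block 1. At 72 h the random block and the 0.01 threshold gave 2 and array weights 6. At 5 days array weights and only the groups compared gave 3, quantile, scale and the 0.01 threshold gave 1 and dropping sparse arrays 0. At 7 days quantile, scale, array weights and only the groups compared gave 1, the last 2 also 1 at 9 days. The 7 falls between successive times became 11 under quantile, 14 with array weights and 4 with genes on all arrays, the random block or the 0.01 threshold. The 5 differences from 14 days became 3 under quantile, the fixed block or the 0.01 threshold and 2 without sparse arrays. Leaving out 1 array gave 0 to 2 genes for control ODN, 4 to 7 at 9 h, 2 to 5 at 24 h, 2 to 4 at 72 h, 1 to 2 at 5 days, 0 to 1 at 7 and at 9 days, 4 to 9 falls and 3 to 6 differences from 14 days. Fits on genes with a value on all 42 arrays, the fixed and random blocks among them, leave out Ccl7, Ccl12 and Ccr1. With genes on all arrays as the only change, no call of the genes still fitted changed, and the lower counts come from the genes left out.

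Arrays were not treated as paired by replicate number. Over 45 pairs of arrays per number, the correlation of deviations had medians of -0.01 to 0.07 and ran from -0.373 to 0.52, with 11 to 19 pairs over 0.1. Arrays of different numbers were not compared in this way, so these values cannot decide whether replicate numbers pair the arrays. Replicates 5 and 6 exist only among the untreated arrays. With the replicate block, comparisons with untreated spleen therefore rested on untreated replicates 1 to 4, which leaves out both low Ccr2 arrays. With this block, control ODN gave 0 genes, and Ccr2 there stood at 0.65 (adjusted p 0.224). Ccl5 at 3 and 9 h and Ccl2 at 9 h, 72 h and 5 days also lost their calls (adjusted p 0.0538 to 0.12) with differences of 0.66 and 0.73, and 0.77, -0.77 and -0.75, close to those without it. Ccr2 at 3 h (-1.24, adjusted p 0.00348), Ccl7 at 24 h, Ccl12 at 5 days, Ccr2 from 9 to 24 h and Ccl12 from 72 h to 5 days gained one. Missing spots limit Ccr1 most.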
